A study of Anopheles gambiae with 18 samples.

Results

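Cytochrome P450 transcripts of the adult Anopheles gambiae midgut were described across both sexes and across the compartments of the female midgut. They were taken as the transcripts whose homology text in the male versus female and gut compartment lists of the study's Additional file 1 contains P450, together with transcript ENSANGT00000025913. The rule used no ratio. It gave 28 transcripts of the 14197 on the array, and all 28 had a spot. Of these, 24 came from the male versus female list, 3 from the gut compartment list alone (EN008167, EN011391 and EN019660) and 1 from the rule itself (EN025913). Names are shortened as in the study, so that EN015254 stands for ENSANGT00000015254. The lists call these transcripts only cytochrome P450, so that no member could be given a gene name or a substrate here.

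The mosquitoes were of the Keele strain, were kept on sucrose and had not taken blood. All were 4 days old, except that the label of array 1 of the anterior comparison gives no age. Each of 6 comparisons had 3 arrays, which the methods describe as biological replicates, and every array carried 1 sample in Cy5 and 1 in Cy3. Male midgut (Cy5) was set against female midgut (Cy3). The cardia, the anterior midgut, the anterior part of the posterior midgut (anterior-posterior) and the posterior part of the posterior midgut (posterior-posterior) of females were each the Cy5 sample against whole female midgut. The cardia (Cy5) was also set directly against the posterior midgut (Cy3). No dyes were swapped, and the effect of a dye on a probe and a difference between the samples cannot be told apart in any of the 6 comparisons. The samples were RNA of dissected tissue, in which fewer cells of a type and less RNA per cell cannot be told apart.

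Cytochrome P450 enzymes are heme proteins that insert an oxygen atom into their substrates, with electrons passed on by a reductase or a ferredoxin. In insects they form a large family. Some members make and break down ecdysteroids, juvenile hormones and fatty acids, and others oxidize plant compounds and insecticides, a task in which the midgut takes part together with the fat body and the Malpighian tubules. Products of the oxidation are often passed on to conjugating enzymes such as glutathione S-transferases and UDP-glucuronosyltransferases and to export pumps.

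Values below are log2 Cy5/Cy3 ratios, each array being set so that the male versus female list, 1937 transcripts, has a median of 0. A value of 1 is a 2-fold higher abundance in the Cy5 sample. Between 12273 and 15494 features had a value on an array, and at least 26 of the 28 cytochrome P450 transcripts did. A transcript was called where its mean was at least 2-fold from 0 and limma's adjusted p over the 3104 tested transcripts was under 0.05. Over these transcripts, arrays of one comparison correlated with r from 0.541 to 0.694 for the sexes, 0.477 to 0.771 in the anterior midgut, 0.301 to 0.602 for the anterior-posterior, 0.144 to 0.551 for the posterior-posterior and 0.587 to 0.600 for the direct cardia versus posterior comparison, but only from -0.053 to 0.060 for cardia versus whole midgut. The ratios carry no signal level, so that the tissue labels could be checked only through ratios of marker transcripts, given at the end.

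Across the 6 comparisons, 9 of the 28 transcripts were called at least once, with 12 calls in all. The ratio through whose list EN008167, EN011391, EN019660 or EN025913 entered was left out. Of the called members, EN015254 and EN029062 are also on the cardia versus posterior list, and EN015254 and EN022746 on the gut compartment list. Their calls were kept. At the centring used here all 12 calls were in the direction of the Cy5 sample. Of the 12 calls, 5 were in males against females, 5 in the anterior-posterior midgut, 1 in the anterior midgut and 1 in the cardia against the posterior midgut. EN029062 was called in 3 comparisons and EN025325 in both the anterior and the anterior-posterior comparison. The share of all tested transcripts called at least once was not taken, and shares for each comparison are given below.

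**Figure D1:**
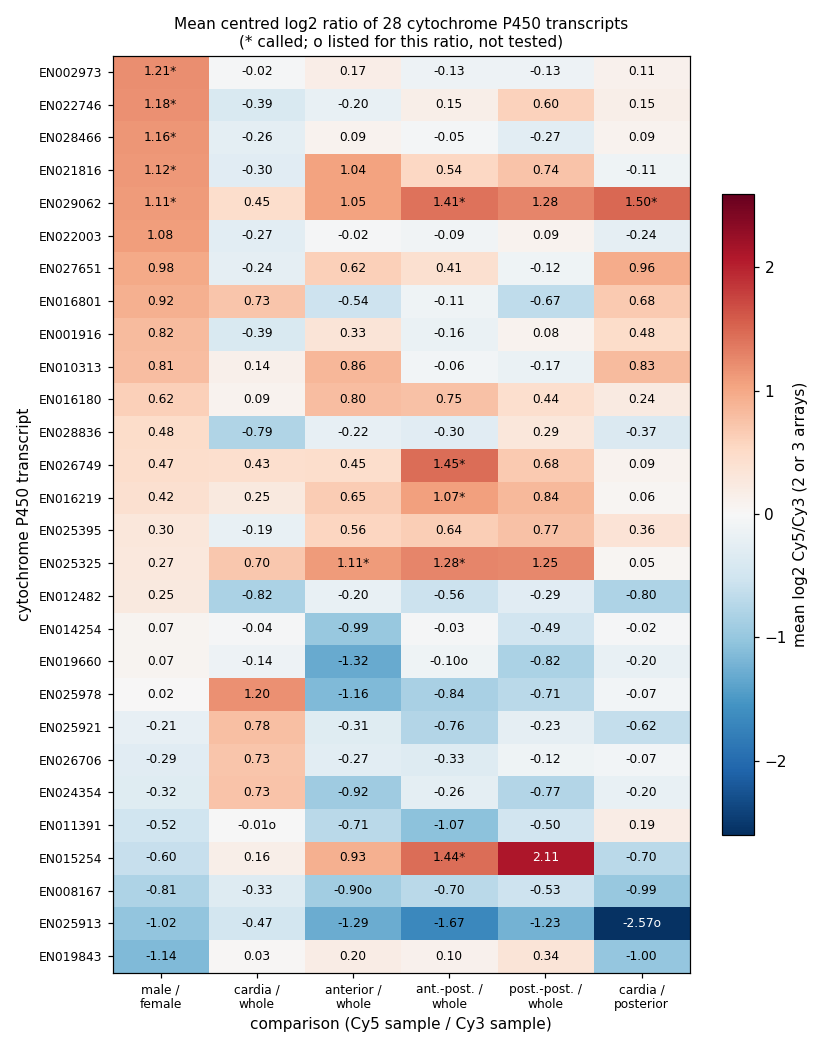
Mean centred log2 Cy5/Cy3 ratio of each of the 28 cytochrome P450 transcripts (rows, ordered by the male/female mean) in the 6 comparisons (columns), over 3 arrays or over 2 where a value was missing. An asterisk marks a call and a small o a transcript that entered through a list of that same ratio and was not tested. The male/female column is mostly positive, and the highest value of the map is 2.11 for EN015254 in the posterior-posterior midgut.

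The sex comparison asked which midgut transcripts differ between males and females. Of the 28 cytochrome P450 transcripts, 20 had a mean above 0 and 5 were called higher in the male midgut, against 0.999% of all tested transcripts. All 5 were among the 24 members from the male versus female list, and 1.60% of the transcripts of that list were called higher in males. None was called higher in the female midgut, against 3.90% of all tested transcripts and 0.516% of the list. The median of the members was 0.36 and that of all tested transcripts was -0.27, a difference of 0.63 that does not depend on the centring. That of the male versus female list, from which 24 of the members came, was -0.03. By the mean alone, 6 members had a mean at least 2-fold higher in males (2.38% of all tested) and 2 at least 2-fold lower (14.9%). Of the 100 transcripts with the highest male/female mean, 7 were cytochrome P450 transcripts.

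The male/female ratios of EN002973 were 1.21, 1.43 and 0.98 on arrays 1 to 3, with a mean of 1.21 ± 0.23 (SD, n = 3), or 2.31-fold (limma adjusted p = 0.0401). EN022746 had ratios of 1.58, 1.48 and 0.48, with a mean of 1.18 ± 0.61 (SD, n = 3; limma adjusted p = 0.0422). EN028466 had 1.43, 1.32 and 0.71, with a mean of 1.16 ± 0.39 (SD, n = 3; limma adjusted p = 0.0211). In each of these the male sample was higher on all 3 arrays and array 3 held the lowest value. EN021816 followed with 1.32, 1.50 and 0.54 and a mean of 1.12 ± 0.51 (SD, n = 3; limma adjusted p = 0.0426). EN029062 had 1.15, 1.14 and 1.04, a mean of 1.11 ± 0.06 (SD, n = 3; limma adjusted p = 0.0468), which was the tightest of the 5. The median of all members was likewise lower on array 3, with 0.21 against 0.42 and 0.61 on arrays 1 and 2.

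Just outside the call, EN022003 reached 2-fold with a mean of 1.08 but a limma adjusted p of 0.0896, and its values of 1.67, 1.10 and 0.47 differed by more than 1 between arrays. EN027651 (mean 0.98, limma adjusted p = 0.0411) and EN001916 (mean 0.82, limma adjusted p = 0.0496) passed the p-value and not the 2-fold threshold. These 3 were named after their values were seen, as was EN019843 on the female side. EN019843 had ratios of -0.86, -1.38 and -1.17, a mean of -1.14 ± 0.26 (SD, n = 3), and was not called (limma adjusted p = 0.104).

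The 5 calls rested on all 3 arrays. Without any of them, limma called 0 of the 28 members in the sex comparison. Of all tested transcripts, 0.0646% were called higher and 1.42% lower without array 1, and 0 without array 2 or array 3. With arrays centred on all transcripts the members' median was 1.04 and 14 of the 28 were called higher in males, where the median of all tested transcripts was 0.41 and 11.7% of them were called higher. Without centring the members' median was 0.37 and none was called, against 0.226% called higher and 1.87% called lower of all tested. The members' median thus kept its sign and the number of calls did not hold.

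**Figure D2:**
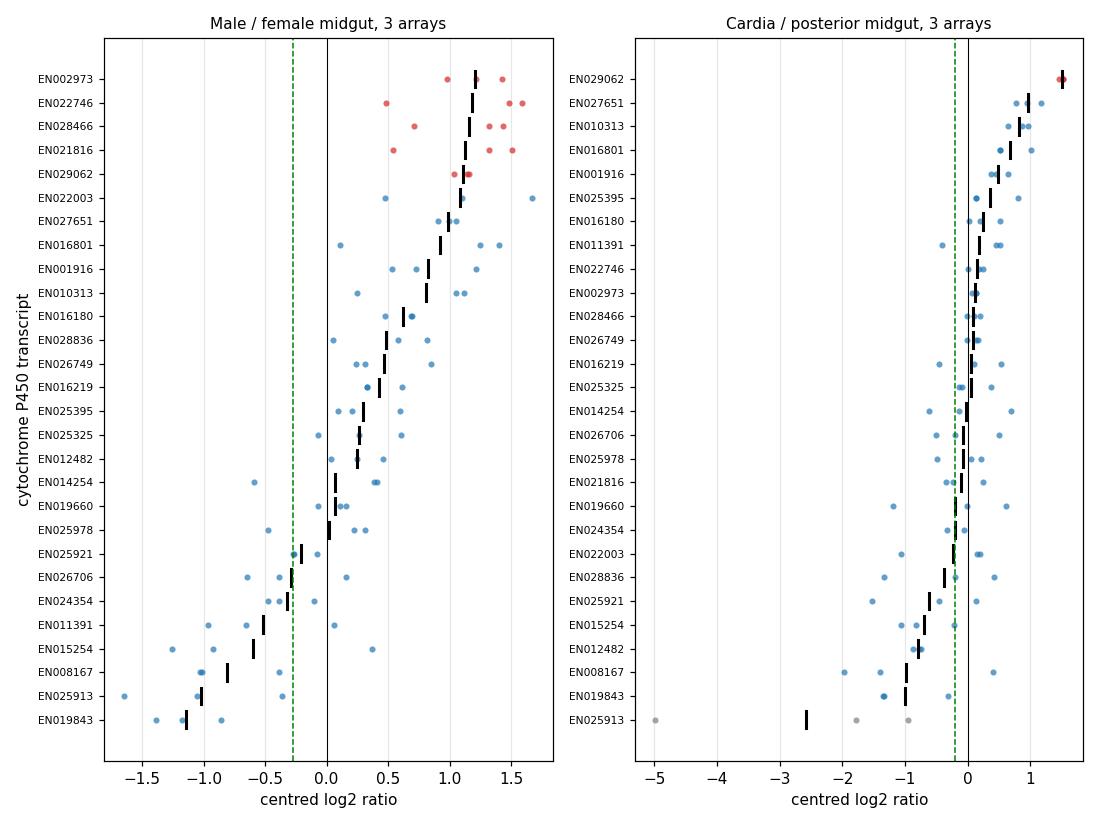
Centred log2 ratio of each cytochrome P450 transcript on the 3 male/female arrays (left) and the 3 cardia/posterior arrays (right), with dots for arrays, a black bar for the mean, red dots for called transcripts, gray dots for the transcript that entered through the list of that ratio and a dashed green line at the median of all tested transcripts. The 5 called transcripts on the left have all their dots above 0, and EN029062 on the right has 3 nearly identical values around 1.50.

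The front of the posterior midgut gave the other group of calls. In the anterior-posterior comparison 5 of the 27 members tested were called higher than in whole midgut, against 3.90% of all tested transcripts and 5.94% of the male versus female list. None was called lower, against 10.2% of all tested and 4.03% of the list. All 5 called members had means above 0 in all 4 whole midgut comparisons. Whole midgut is made up of these compartments, so the calls are not read as higher abundance in this part. EN029062 was the only member called both here and in males. The members' median of -0.08 lay 0.25 above that of all tested transcripts but below that of the male versus female list, -0.004. The sign of the members' median depended on the centring, with 0.80 for arrays centred on all transcripts and -1.06 without centring. The members' means ranged from -1.67 to 1.45, and the 5 called transcripts were the highest.

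EN026749 had anterior-posterior ratios of 1.40, 1.26 and 1.68, with a mean of 1.45 ± 0.21 (SD, n = 3), or 2.73-fold (limma adjusted p = 0.0096). EN015254 had 1.44, 1.33 and 1.56 with a mean of 1.44 ± 0.11 (SD, n = 3; limma adjusted p = 0.0212). EN029062 had 1.39, 1.28 and 1.56 with a mean of 1.41 ± 0.14 (SD, n = 3; limma adjusted p = 0.0106). These 3 lay within 0.04 of each other in mean, which is less than their spread between arrays. The ratios of EN025325 were 1.26, 1.39 and 1.19, with a mean of 1.28 ± 0.10 (SD, n = 3; limma adjusted p = 0.0096). EN016219 was less even, with 1.48, 0.47 and 1.26 and a mean of 1.07 ± 0.53 (SD, n = 3; limma adjusted p = 0.0212). The first 4 were at least 2-fold higher on each of the 3 arrays, which no other member was in this direction.

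The calls of the anterior-posterior comparison also depended on single arrays. Without array 1 or array 2 none of the members was called, and without array 3 the calls were EN015254, EN025325, EN026749 and EN029062 as higher and EN025913 as lower. Of all tested transcripts, 0 were called without array 1 and 0.774% higher and 0.355% lower without array 2. Without array 3 the shares were 3.74% higher and 22% lower. Centred on all transcripts, 10 of the 27 members were called, all higher, as were 27.9% of all tested transcripts. Without centring, 15 were called, all lower, as were 61.6% of all tested, and these held none of the 5.

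In the posterior-posterior midgut none of the 28 members was called by limma, against 0% of all tested transcripts in either direction. An unadjusted limma p under 0.05 was reached by 8 of the 28 members, against 19.2% of all tested. The methods' test on the 3 arrays alone gave 3 members higher before adjustment and 0 after it. Of all tested transcripts it called 48 higher and 33 lower before adjustment, or 2.61%, and 0 after it. EN015254 had ratios of 2.96, 1.81 and 1.55, a mean of 2.11 ± 0.75 (SD, n = 3), or 4.31-fold (limma adjusted p = 0.0598). This was the highest mean of all 3103 transcripts tested in the posterior-posterior comparison at the centring used here. Among transcripts with values on all 3 arrays this rank does not depend on the centring. EN029062, with 0.83, 1.60 and 1.39 and a mean of 1.28 ± 0.40 (SD, n = 3; limma adjusted p = 0.0749), and EN025325, with 1.43, 0.93 and 1.38 and a mean of 1.25 ± 0.28 (SD, n = 3; limma adjusted p = 0.0749), came next among the members. They held ranks 12 and 17. The absence of calls depended on the centring, with 4 members called higher and none lower when centred on all transcripts (4.54% of all tested higher and 0.161% lower), and 1 higher, EN015254, and 11 lower without centring (0.0322% higher and 50.1% lower). EN016219 (0.54, 1.29 and 0.69) and EN026749 (0.22, 1.22 and 0.61) had all values above 0 and means of 0.84 and 0.68.

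**Figure D3:**
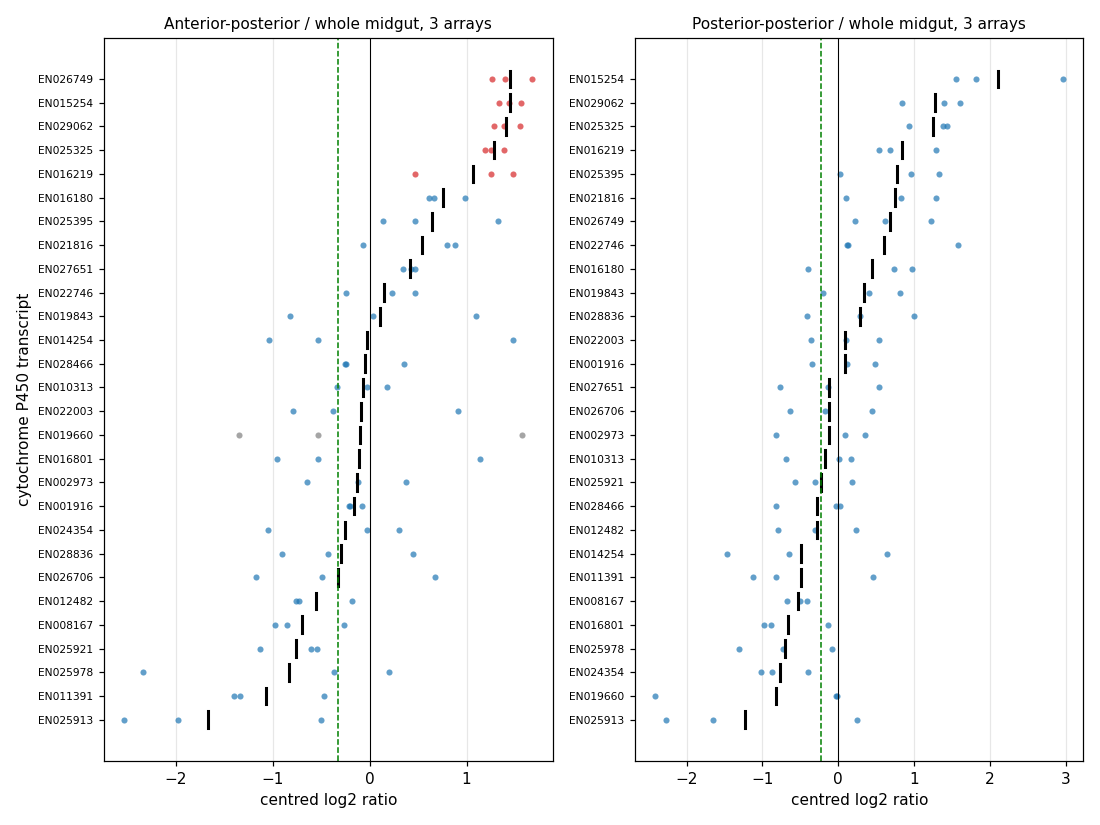
Centred log2 ratio of each cytochrome P450 transcript on the 3 anterior-posterior/whole arrays (left) and the 3 posterior-posterior/whole arrays (right), with dots for arrays, a black bar for the mean, red dots for called transcripts, gray dots for the transcript that entered through the list of that ratio and a dashed green line at the median of all tested transcripts. EN015254, EN029062 and EN025325 are among the top 5 in both panels, and many other members have dots on both sides of 0.

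Both parts of the posterior midgut were compared through the difference of their ratios to whole midgut, in which a dye effect of a probe cancels. None of the 27 members tested was called, against 0% of all tested transcripts, and none had an unadjusted limma p under 0.05, against 4.64%. For EN026749 the anterior-posterior ratio was higher by 0.76, with a 95% confidence interval from -0.11 to 1.63. For EN015254 it was lower, with a difference of -0.66 (95% confidence interval from -1.79 to 0.46). The intervals are wide, and a difference of 2-fold between the parts was within both.

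The anterior midgut gave 1 call among the 27 members tested, against 1.16% of all tested transcripts called higher and 3.87% called lower. EN025325 had ratios of 0.72, 0.89 and 1.73, with a mean of 1.11 ± 0.54 (SD, n = 3; limma adjusted p = 0.0355). Its means were above 0 in all 4 whole midgut comparisons, so the limit given for the anterior-posterior calls holds here too. EN029062 (0.86, 0.55 and 1.75) and EN021816 (0.68, 0.71 and 1.72) had means of 1.05 and 1.04 and missed the threshold, with limma adjusted p of 0.0560 and 0.0537. In all 3 of these transcripts array 3 held the highest value. Without any of the 3 arrays, no member was called. Of all tested transcripts, 0 were called without array 1 or array 3, and 0.129% higher and 0.194% lower without array 2. The number of members with all 3 values above 0 was 12 and that with all 3 below 0 was 6, and the members' median of 0.03 lay 0.39 above that of all tested transcripts. Its sign turned without centring, to -0.31, while centring on all transcripts gave 0.82. Centred on all transcripts 11 of the 27 members were called higher, against 19.5% of all tested transcripts, and without centring 5 were called lower and none higher, against 29.4% and 0.644%. With array weights 6 were called lower and none higher, against 23.7% and 0.805%, and a fit of these 3 arrays alone called 3 in each direction, against 1.51% higher and 17.3% lower.

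EN025913 was the member with 2-fold lower values on all 3 anterior arrays, with -1.14, -1.69 and -1.04 and a mean of -1.29 ± 0.35 (SD, n = 3), and it was not called (limma adjusted p = 0.144). EN019660 had a similar mean of -1.32 ± 0.46 (SD, n = 3), from -1.13, -1.84 and -0.99, and was not called either (limma adjusted p = 0.101). For the difference between the anterior ratio and the mean of both posterior ratios, none of the 26 members tested was called, against 0% of all tested transcripts. One member, EN010313, had an unadjusted limma p under 0.05, against 4.80% of all tested, with a difference of 0.98 towards the anterior midgut (95% confidence interval from 0.19 to 1.77; limma adjusted p = 0.999).

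In cardia against whole midgut none of the 27 members tested was called by limma, against 1.69% of all tested transcripts called higher and 1.17% called lower. An unadjusted limma p under 0.05 was reached by 4 of these members, against 19.2% of all tested transcripts. The methods' test called 0 of them before adjustment, against 1.36%. Only 1 member had all 3 values above 0, which was EN026706 with 1.35, 0.19 and 0.64. The highest mean, 1.20 for EN025978, came from 3.77, 0.82 and -1.01, so that it was carried by array 1. Without array 2, EN024354 was called higher and EN012482 lower, against 4.77% and 4% of all tested transcripts. Without array 3, EN025978 was called higher, against 3.87%. Centred on all transcripts none was called, and without centring 20 of the 27 were called lower and none higher, against 74.4% and 0.0975% of all tested transcripts. The median SD of the members was 0.82 in this comparison and 0.34 in the direct comparison of cardia and posterior midgut.

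The direct comparison of the cardia with the posterior midgut called 1 of the 27 members tested as higher in the cardia, against 3.09% of all tested transcripts, and none as lower, against 1.22%. The cardia versus posterior list itself holds EN029062, EN015254 and EN019843, among others. EN029062 had ratios of 1.52, 1.51 and 1.46, with a mean of 1.50 ± 0.03 (SD, n = 3), or 2.83-fold (limma adjusted p = 0.00909). It was called under each of the 3 centrings, but not without any single array, where its limma adjusted p was from 0.0598 to 0.0921, nor with all transcripts tested at the centring used here. With an array left out, from 0.678% to 1.67% of all tested transcripts were called higher. EN027651 came next, with 1.17, 0.95 and 0.76 and a mean of 0.96 ± 0.20 (SD, n = 3), just under 2-fold (limma adjusted p = 0.0422). EN010313 had 0.96, 0.87 and 0.65. On the posterior side, EN019843 had -0.32, -1.35 and -1.33, which was not called (limma adjusted p = 0.175), and EN015254 had -0.22, -1.07 and -0.82, with a mean of -0.70 ± 0.44 (SD, n = 3; limma adjusted p = 0.279). EN027651, EN010313 and EN019843 were named after their values were seen.

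The same difference was also taken indirectly, as the cardia/whole ratio minus the mean of both posterior/whole ratios, in which a dye effect of a probe cancels. For EN029062 the indirect value was -0.89 (95% confidence interval from -1.69 to -0.09; limma adjusted p = 0.155), opposite in sign to the direct value of 1.50 and with an interval that did not reach it. It came from a cardia/whole mean of 0.45 ± 0.99 (SD, n = 3; 0.48, -0.55 and 1.42) and from the posterior means of 1.41 and 1.28 above. EN015254 had an indirect value of -1.62 (95% confidence interval from -2.59 to -0.64) and was the 1 member called in this form, as lower in the cardia (limma adjusted p = 0.0480), against 1.11% of all tested transcripts called lower and 4.81% called higher. Its direct value of -0.70 had the same sign. The indirect form rests on the cardia/whole arrays, which did not correlate with each other.

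**Figure D4:**
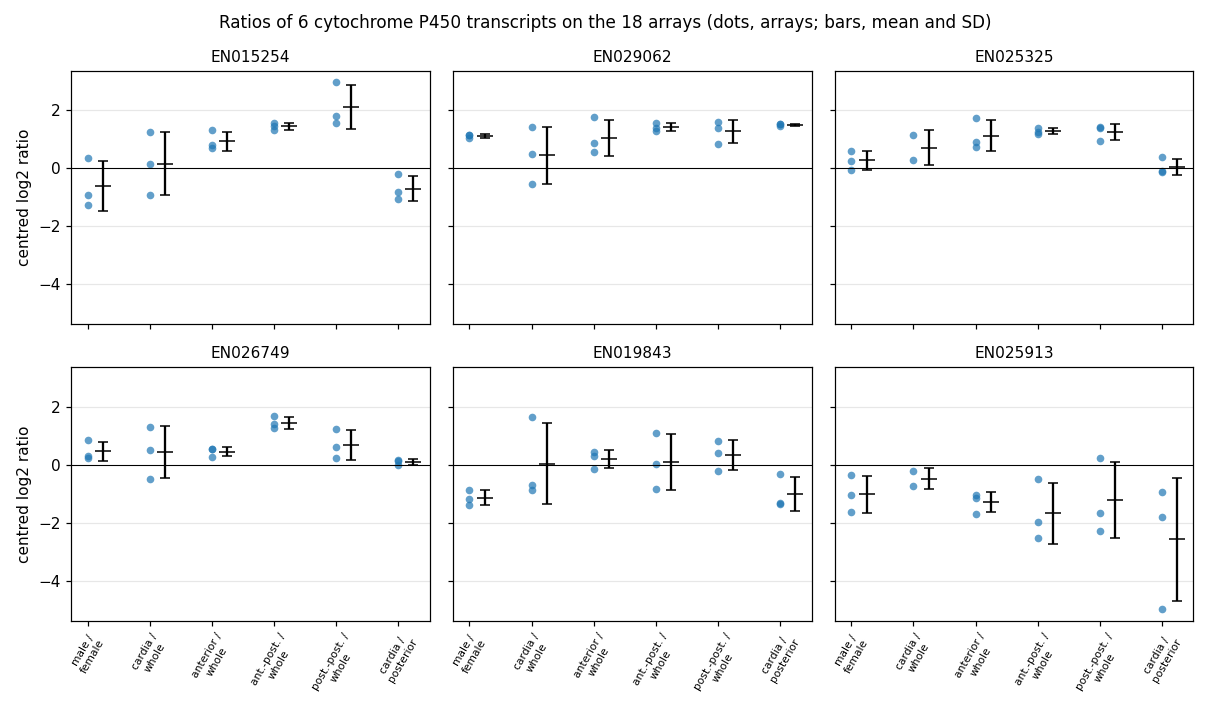
Centred log2 ratios of 6 cytochrome P450 transcripts on the arrays of the 6 comparisons, with dots for arrays and, beside them, the mean and SD over 3 arrays (2 for EN025325 and EN025913 in cardia/whole). EN029062 has means above 1 everywhere but in cardia/whole, EN015254 is high in both posterior parts and below 0 in cardia/posterior, and the means of EN025913 are below 0 in all comparisons, with a value of -4.98 on 1 array.

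The 4 members that entered through a list of 1 of the ratios are given there as a description. EN008167, listed for the anterior midgut, had -2.20, -1.04 and 0.53 in it. EN011391, listed for cardia against whole midgut, had 0.33, 2.08 and -2.43, and EN019660, listed for the anterior-posterior midgut, had -1.35, -0.53 and 1.57. In each of these the 3 arrays fell on both sides of 0. EN025913 had -0.95, -4.98 and -1.78 in cardia against posterior midgut, which was the lowest mean of the 3104 transcripts tested, -2.57 ± 2.13 (SD, n = 3). Outside the ratios for which they were listed, EN011391 was at -1.40, -1.34 and -0.47 in the anterior-posterior midgut and EN008167 at -0.38, -1.01 and -1.03 in males against females. Neither was called.

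EN025913 was named by the rule itself. On the cardia versus posterior list the row before it reads cytochrome P450, and its own row holds another transcript identifier in place of a name. Of 187 transcripts that this list shares with the other lists, 118 had the name of their own row, 62 the name of the row before and 7 neither. Its naming as a cytochrome P450 is thus less sure than that of the others. Of its 17 values, 5 were ratios of small whole numbers (within 0.00051 of a ratio with a denominator of at most 10), against 11.8% of the values of all members, 16.9% of those of the tested transcripts and 22.0% of those of all transcripts. When the members' ratios were shifted by 4 to 15 thousandths, from 1.69% to 4.87% of them met this. The share of EN025913 was 29.4%, and EN008167 (28.6%), EN011391 and EN025978 (both 27.8%) were close to it. EN015254, EN019843, EN022003, EN025325 and EN026749 had none and EN029062 had 1 of 18. Signal intensities were not used here, and the part of low signal in these ratios was not tested.

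Since the Cy5 sample was the first named in every comparison, the side on which the members stood in all comparisons was counted. Of the 24 members from the male versus female list, 5 had means above 0 in all 6 comparisons (EN016180, EN016219, EN025325, EN026749 and EN029062), against 7.61% of the tested transcripts, and none had means below 0 in all 6, against 20.0%. Of these 24, EN015254, EN022746 and EN025395 are also on the gut compartment list. EN012482, EN015254, EN019843 and EN029062 are also on the cardia versus posterior list. The arrays were centred on the male versus female list, and the shares cover all tested transcripts. Of the tested transcripts, only 31.9% to 49.9% had a mean above 0 in a comparison. No share within the list was taken, so these counts are not read as a trait of the members. Outside the 24, EN008167 and EN025913 were below 0 in all 6. In the 4 compartments, of the 25 members that had not entered through the gut compartment list alone, 7 were above 0 throughout, against 13.3% of the tested transcripts, and 3 below 0 throughout, against 26.5%. The same limit holds for these shares. These counts moved with the centring, to 11 and 1 with arrays centred on all transcripts (31.7% and 5.96% of the tested) and to 0 and 15 without centring (0.193% and 77.9%). For the transcripts on the Cy5 side throughout, a dye effect and a difference of abundance cannot be told apart in a single comparison. Whole midgut is made up of the 4 compartments, so means above 0 in all 4 are not read as higher abundance in each. EN015254 and EN019843 were not above 0 in all 6, since both had negative means for males against females and for cardia against posterior midgut. Both had positive means in all 4 compartments, so the same limit holds for them there. The cardia/whole mean of EN019843 was 0.03, from -0.85, 1.64 and -0.69.

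The 15 members without values given by rule lay between -1.14 and 1.08 in the sex comparison, with 11 means above 0. They lay between -1.16 and 0.86 in the anterior, between -0.84 and 0.75 in the anterior-posterior and between -0.77 and 0.77 in the posterior-posterior midgut, with 9, 11 and 9 means below 0. Among them EN016180, 1 of 2 members with 2 spots, was above 0 on all anterior-posterior arrays with 0.61, 0.67 and 0.98, and on all anterior arrays with 0.54, 0.58 and 1.28. EN024354 was below 0 on all arrays of the anterior (-1.11, -1.28 and -0.37) and posterior-posterior midgut (-1.02, -0.41 and -0.88). Neither was called, and both were named after their values were seen.

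The partners of cytochrome P450 in detoxification were taken from the homology text of the same lists, 58 transcripts in all. In males against females 2 of the 58 were called higher and none lower, against 0.999% and 3.90% of all tested transcripts, both of them among the 7 UDP-glucuronosyltransferases, which join a sugar to oxidized compounds. These were EN018537 with a mean of 1.35 ± 0.51 (SD, n = 3; limma adjusted p = 0.0198) and EN020582 with 1.13 ± 0.27 (SD, n = 3; limma adjusted p = 0.0211), and the median of the 7 was 0.79. None of the 14 glutathione S-transferases (median 0.08), 9 esterases (-0.19), 12 ABC transporters (0.26), 10 aldehyde dehydrogenases and aldo-keto reductases (0.04), 3 electron donors (-0.04), 2 sulfotransferases (0.46) or the epoxide hydrolase (0.36) was called between the sexes.

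In the anterior-posterior midgut 4 of the 58 partners were called higher and 2 lower, against 3.90% and 10.2% of all tested transcripts. Higher were an aldehyde dehydrogenase (EN013314, mean 1.23 ± 0.11), an aldo-keto reductase (EN018090, 1.29 ± 0.43), an esterase (EN013861, 1.44 ± 0.17) and a glutathione S-transferase (EN018735, 1.06 ± 0.76), each over 3 arrays. Lower were a glutathione S-transferase (EN011261, -1.39 ± 0.83) and an esterase (EN027262, -1.31 ± 1.01). The 3 electron donors had a median of -0.05 there. In cardia against posterior midgut 2 of the 58 were called higher, against 3.09% of all tested transcripts, which were glutathione S-transferase EN011661 (1.62 ± 0.27) and UDP-glucuronosyltransferase EN018523 (1.13 ± 0.13). In cardia against whole midgut aldehyde dehydrogenase EN013314 was called higher (1.16 ± 0.71) and microsomal glutathione S-transferase EN013410 lower (-1.87 ± 0.74), against 1.69% and 1.17% of all tested transcripts. None of the 58 was called in the anterior midgut, against 1.16% of all tested transcripts higher and 3.87% lower. None was called in the posterior-posterior midgut either, where 0% of all tested transcripts were called.

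Markers of tissue layers were taken in the same way. The 30 digestive transcripts were those whose homology text contains trypsin, carboxypeptidase or peritrophin. The numbered trypsins that the paper reports as enriched in the female midgut are not among them. None of the 30 digestive, 16 muscle or 9 cuticle transcripts was called between the sexes, with medians of -0.20, 0.09 and -0.33. Of all tested transcripts, 0.999% were called higher and 3.90% lower in males. In the anterior-posterior midgut 3 digestive transcripts were called higher and 3 lower, 1 muscle transcript was called higher and 1 cuticle transcript lower, against 3.90% higher and 10.2% lower of all tested transcripts, and the muscle median was 0.44. In the anterior midgut 1 digestive transcript was called higher and 1 lower, and 1 cuticle transcript lower, against 1.16% and 3.87%. In cardia against whole midgut 2 of the 9 cuticle transcripts were called higher, against 1.69% of all tested transcripts, and their median was 0.78, with means from -0.63 to 1.88. Of the digestive transcripts, 2 of the trypsin family were called higher in the cardia as well (EN015040, 1.80 ± 0.40 over 3 arrays, and EN016337, 1.55 ± 0.52 over 2), and the digestive median was 0.21. In cardia against posterior midgut 2 peritrophins, proteins of the matrix that lines the midgut, were called higher (EN012705, 1.47 ± 0.26, and EN029111, 1.96 ± 0.14), against 3.09% of all tested transcripts, and the digestive median was -0.25. None of the marker transcripts was called in the posterior-posterior midgut, against 0% of all tested transcripts. The part of these differences in tissue makeup in the values of the cytochrome P450 transcripts was not tested.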

How the data were processed

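The values the authors deposited are log2 Cy5/Cy3 ratios of each spot, from scans read with GenePix Pro. The methods describe a signal cutoff of 100 units and LOWESS normalization, but array medians from -2.35 to 0.14 show that the deposited ratios were not normalized. The model had been planned for normalized ratios. A placeholder ratio of 100000 (120 spots) was taken as missing. Spots were averaged by transcript, which gave 14197 transcripts, and each array was centred on the 1937 transcripts listed for the male and female midgut, by their median. One limma fit (limma 3.58.1, R 4.3.3) of the 18 arrays gave the mean of each comparison, with 1 spread per transcript and at least 2 arrays with a value. Benjamini-Hochberg adjustment ran over the 3104 transcripts of Additional file 1, which the authors chose in part from these arrays. SDs are over the arrays of a comparison and are not what the p-values rest on. The fit was run on simulated data with normal noise, the same spread in every comparison, no shift between arrays and changes larger than the means called here. This did not test the centring. Tables and figures were made with Python 3.11.15, pandas 2.3.3, NumPy 2.4.6 and matplotlib 3.10.9.

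The members, lists, tested set and centring were chosen with earlier results of these data known. Values by array are given for transcripts called in at least 1 comparison or contrast, those 2-fold in 1 direction on all 3 arrays, those from the gut compartment list alone and EN025913. A member that entered only through a list of the same ratio was not tested for it. Members that stood on such a list but had entered through another were tested. Alternatives were other centrings, tested sets, 3 arrays alone, the methods' test, a replicate block, array weights, the median of spots and leaving out arrays. The number of arrays limits the precision. Columns of the authors' own ratios in the lists were not used. No sequences were used here.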

Additional observations from a re-analysis of the deposited data

Results flagged for a closer look

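In 2 transcripts all 3 arrays of one compartment lay on the other side of 0 from all 3 arrays of another. EN001916 had a mean of 0.33 in the anterior midgut against -0.39 in the cardia and -0.16 in the anterior-posterior midgut, so that the cardia ratio was lower by a difference of -0.72 and the anterior ratio higher than the anterior-posterior one by 0.49. EN022746, 1 of the transcripts called higher in males, had -0.20 in the anterior and 0.60 in the posterior-posterior midgut, a difference of -0.80. These differences were not tested, and the side of 0 depends on the centring.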

How the results depend on the processing

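The number of cytochrome P450 calls changed with the centring, except in cardia against posterior midgut. The median of the list used for it exceeded that of all transcripts by -0.19 to 1.31, depending on the array. Counts are given for the sexes first, then for the whole midgut comparisons from cardia to posterior-posterior, and last for cardia against posterior midgut. The members called were 5, 0, 1, 5, 0 and 1 in this order, all higher in the Cy5 sample. Shares of all tested transcripts called higher were 0.999%, 1.69%, 1.16%, 3.9%, 0% and 3.09%. Those called lower were 3.9%, 1.17%, 3.87%, 10.2%, 0% and 1.22%. Centring on all transcripts gave 14, 0, 11, 10, 4 and 1 calls, all higher, and no centring gave 0, 20, 5, 15, 12 and 1, all lower except EN015254 in the posterior-posterior and EN029062 in the cardia versus posterior comparison. Centred on all transcripts, 11.7%, 2.57%, 19.5%, 27.9%, 4.54% and 4.77% of all tested were called higher. Without centring, 1.87%, 74.4%, 29.4%, 61.6%, 50.1% and 0.805% were called lower, and 1.93% higher in cardia against posterior midgut. Testing all transcripts gave 4, 0, 1, 6, 0 and 0 (1 of the 6 lower), testing the male versus female list alone 2, 0, 1, 5, 3 and 1, and centring on and testing all transcripts, added after seeing the data, 7, 0, 9, 9, 2 and 1. The shares called higher of the transcripts tested were 0.204%, 0.44%, 0.232%, 1.21%, 0% and 0.225% in the first. In the second they were 1.14%, 2.53%, 1.81%, 6.2%, 1.39% and 4.49%. In the third they were 1.01%, 1.38%, 3.05%, 7.74%, 0.162% and 0.465%. In the anterior-posterior midgut the first called 24% lower. A fit of the 3 arrays alone gave 8, 0, 6, 0, 0 and 1, of which 2 of the 8 and 3 of the 6 were lower. It called 2.32%, 0%, 1.51%, 0%, 0% and 4.54% of all tested transcripts higher. Lower were 13.5%, 0%, 17.3%, 0%, 0% and 3.51%. Array weights gave 9, 0, 6, 7, 4 and 2, of which 1 of the 9, all 6 in the anterior midgut, 3 of the 7 and 1 of the 2 were lower. With them 3.06%, 0%, 0.805%, 3.93%, 2.93% and 5.38% of all tested transcripts were called higher. Lower were 13.1%, 0%, 23.7%, 23.5%, 3.87% and 7.76%. The methods' test gave 4, 0, 2, 4, 3 and 1 without adjustment (1 of the 4 between the sexes and both in the anterior midgut lower) and 0 in all 6 with it. Of all tested transcripts it called 6.67%, 1.36%, 10.6%, 6.48%, 2.61% and 7.02% without adjustment. With adjustment it called 3 of all tested transcripts in cardia against posterior midgut and 0 in each other comparison. The median of spots and the demand for 3 values changed no count. The cause of these changes was not tested.

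Leaving out 1 array gave 0 calls between the sexes, from 0 to 2 in the cardia, 0 in the anterior, from 0 to 5 in the anterior-posterior, 0 in the posterior-posterior and 0 in the cardia versus posterior comparison. Fewer arrays are then fitted. The highest shares of all tested transcripts called in 1 direction were then 1.42%, 4.77%, 0.194%, 22%, 0.065% and 1.67% in the same order. Both differences between compartments had 0 calls under every alternative run. The replicate block gave 1, 0, 0, 5, 0 and 1 calls, all higher. It called 0.483%, 1.23%, 0.354%, 3.77%, 0% and 2.48% of all tested transcripts higher. The labels share replicate numbers only as numbers, and 6 of 45 same-numbered pairs of arrays correlated above 0.1 in their deviations, with r from -0.477 to 0.294.

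The called means kept their sign under the other centrings, tested sets and fits. The indirect form of cardia against posterior, added after seeing the data, turned EN029062 to -0.89 and called 1 member, EN015254, which was not called directly.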
